A study of Homo sapiens with 9 samples.

Results

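The genes described here are 9 genes of prostanoid and bradykinin signalling: PLA2G4A, PTGS1, PTGS2, PTGES, PTGES2, PTGER4, HPGD, BDKRB1 and BDKRB2. They were chosen by name, with earlier results of these data known, and matched by symbol. All 9 were found among the 62710 distinct gene identifiers of the count table. HT-29 cells, an established human colorectal adenocarcinoma line with epithelial properties, received no stimulus (non-stimulated), flagellin at 500 ng/mL or ADP-heptose at 500 ng/mL for 2.5 h (dose and time from the methods of the study), with 3 poly(A) RNA libraries in each group. Flagellin is the protein of the bacterial flagellum and is sensed by TLR5 at the cell surface, whereas ADP-heptose is a bacterial sugar nucleotide that is sensed in the cytosol by the kinase ALPK1. No allele or transgene was given for these cells, so all 3 groups share the same line, which is a model of a tumor epithelium without stromal or immune cells.

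Prostanoids are lipid mediators made from arachidonic acid. A phospholipase A2 releases the acid from membranes, a cyclooxygenase turns it into prostaglandin H2, and terminal synthases turn this into prostaglandin E2 and related products, which act on cell surface receptors until they are oxidized. Kinins such as bradykinin are short peptides cut from kininogen in inflamed tissue, and they act on the receptors B1 and B2, of which B2 is the usual constitutive receptor and B1 is known to be induced in inflammation.

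The libraries held 35040844 to 37537705 counts without stimulation, 30770448 to 38304035 with flagellin and 50054773 to 58272772 with ADP-heptose. ADP-heptose replicate 3 stood apart from its group: over 12132 genes its log2 values differed from those of replicates 1 and 2 with an SD of 0.38 each, whereas these 2 replicates differed from each other by 0.13 and the pairs within the other groups by 0.17 to 0.19. All 7 epithelial markers were detected, with a summed level of 7460 to 7780 CPM (counts scaled to the effective library size) without stimulation, 7640 to 7920 with flagellin and 8230 to 11500 after ADP-heptose. Of 8 markers of stromal, endothelial and blood cells, CD3E and COL1A2 had 0 counts in all 9 libraries, and the summed level was 13.6 to 16.2, 14.5 to 17.7 and 18.3 to 20.9 CPM in the same order. Most of this sum came from COL1A1, with 437 to 1019 counts per library (12.4 to 19 CPM), and VIM had 37 to 83 counts. COL1A1 was higher after ADP-heptose than without stimulation (log2 fold change 0.41, edgeR adjusted p 0.0311).

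For the 4 members whose RNA passed the test after ADP-heptose, the sequence before the start of the gene is shown, because these letters can be set beside the changes described below. The sequences are those of RefSeq on GRCh38.p14, in which all 9 members matched, and run 5′ to 3′ on the strand of the gene. Position 0 is the annotated start. Capitals mark matches on either strand to an NF-kB-type motif (GGG and CC with any 5 bases between them), a CRE-type motif (TGACNTCA), a shorter CRE-type motif (TGACG), a C/EBP-type motif (TTNNGCAA) and a TATA box (TATAAA). An AP-1 motif (TGANTCA) was also searched and had no match in these 4 windows. Matches of the NF-kB-type motif to both strands overlap in PTGS2 and in BDKRB2. The motifs were chosen after the sequences had been seen.
PTGS2, chr1:186680434-186680673, minus strand, positions -250 to -11: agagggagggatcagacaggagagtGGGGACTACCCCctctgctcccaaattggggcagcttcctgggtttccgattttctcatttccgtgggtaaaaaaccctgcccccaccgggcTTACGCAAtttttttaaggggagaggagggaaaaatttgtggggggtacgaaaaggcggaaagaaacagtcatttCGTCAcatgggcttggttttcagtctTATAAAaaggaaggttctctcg
PTGES, chr9:129753053-129753292, minus strand, positions -250 to -11: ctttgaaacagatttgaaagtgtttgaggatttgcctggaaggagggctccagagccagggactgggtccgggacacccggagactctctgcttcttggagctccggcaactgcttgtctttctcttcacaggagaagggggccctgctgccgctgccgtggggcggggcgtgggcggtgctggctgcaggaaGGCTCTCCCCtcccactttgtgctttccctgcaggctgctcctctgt
BDKRB1, chr14:96256143-96256172, plus strand, positions -67 to -38: tgcGGCAATCCCCacaaTGACATCActgga
BDKRB2, chr14:96204772-96204801, plus strand, positions -67 to -38: gGGGAAGTGCCCaggaggctgaTGACATCA

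The windows of the kinin receptors, 30 bases each, are alike in the order of their matches. An NF-kB-type match began at -64 in BDKRB1 and at -66 in BDKRB2, and the same 8 letters, TGACATCA, followed at -50 and at -45. In GENCODE 29 both windows lie inside an exon of a longer transcript of the gene, which starts further upstream. In PTGS2 the NF-kB-type matches began at -225 to -223, the C/EBP-type match at -133, a short CRE-type match at -58 and the TATA box at -32. In PTGES the NF-kB-type match began at -57. The NF-kB-type motif is common: of 35116 promoter windows from 250 bases before to 50 after the start, 58.7% held a match. The CRE-type motif was found in 7.72% of these windows, its form TGACATCA in 2.61%, the short CRE-type motif in 24.6%, the C/EBP-type motif in 10.5% and the TATA box in 11.5%. A match is a description of letters and was not tested as a binding site, and of the 5 members that did not pass the test after ADP-heptose, PTGS1, PTGES2, PTGER4 and HPGD hold NF-kB-type matches in their windows too and PLA2G4A holds a CRE-type match.

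**Figure D1:**
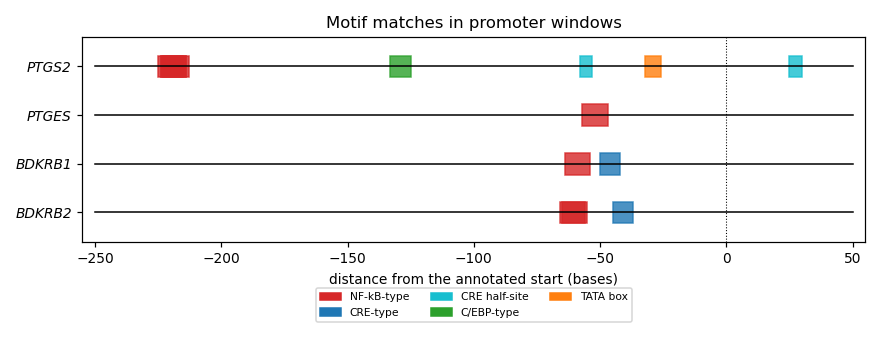
Motif matches in the promoter windows of PTGS2, PTGES, BDKRB1 and BDKRB2. The horizontal axis is the distance from the annotated start in bases, from -250 to 50, each line is the window of 1 gene and each box is a match drawn to its length; the NF-kB-type and CRE-type boxes of BDKRB1 and BDKRB2 lie next to each other, with their left ends at -64 and -50 and at -66 and -45.

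The comparison of ADP-heptose with non-stimulated cells asks which genes answer the bacterial sugar nucleotide. Of the 9 members, 4 rose and 0 fell at an edgeR adjusted p under 0.05: PTGS2, PTGES, BDKRB1 and BDKRB2. These 4 also passed the study's threshold of a 2-fold change. At an unadjusted p under 0.05 the numbers were 5 higher and 0 lower, beside 4334 of all 17412 genes tested in either direction. DESeq2 called 5 higher, PTGER4 among them, and 0 lower. Over all 17412 genes tested, 7.48% rose and 4.42% fell at an adjusted p under 0.05, and 2.89% rose and 0.471% fell at both thresholds. In numbers these were 504 higher and 82 lower genes, and 429 and 175 when libraries were scaled by their totals, with the members' calls unchanged. The median log2 fold change of the 9 members was 0.88, against 0.01 over all genes tested, and it was the same with BDKRB1 set to its lower bound. Because members and lists were chosen with earlier results known, values over all genes, here and below, are a background and not a test. The ADP-heptose libraries lay wholly above the non-stimulated ones for 5 members and wholly below for 0, as for 15.4% and 14.7% of all genes. All 9 members passed the filter on low counts, but BDKRB1 passed it only through the ADP-heptose libraries and BDKRB2 only through the flagellin and ADP-heptose libraries. In RNA from whole cultures, a change in the share of responding cells and a change in RNA per cell cannot be told apart.

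With flagellin 2 members rose, PTGS2 and PTGES, each by at least 2-fold, and 0 fell, where 0.368% of all genes tested rose and 0.0115% fell at an adjusted p under 0.05 and 0.212% rose and 0.0115% fell at both thresholds. The median log2 fold change of the members was 0.08, against 0.00 over all genes. At an unadjusted p under 0.05, as with DESeq2, BDKRB2 was the third higher member and 0 were lower. After flagellin, 659 of all genes tested had an unadjusted p under 0.05, in either direction. The flagellin libraries lay wholly above the non-stimulated ones for 3 members and wholly below for 0, as for 7.66% and 5.19% of all genes. Directly compared, 4 members were higher after ADP-heptose than after flagellin (PTGS2, PTGES, BDKRB1 and BDKRB2) and 0 were lower, also with DESeq2 and at an unadjusted p under 0.05, where PTGER4 was the fifth higher member. Between the stimuli, 3691 of all genes tested had an unadjusted p under 0.05, in either direction. The ADP-heptose libraries lay wholly above the flagellin ones for 5 members and wholly below for 0, as for 14.2% and 12.8% of all genes. Among all genes 5.4% were higher and 2.76% lower in this comparison. At both thresholds 3 of the 4 remained, without PTGES, and 2.06% of all genes were higher and 0.287% lower (359 and 50 genes, or 309 and 93 with library totals). The 2 comparisons with non-stimulated cells share their control libraries.

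**Figure D2:**
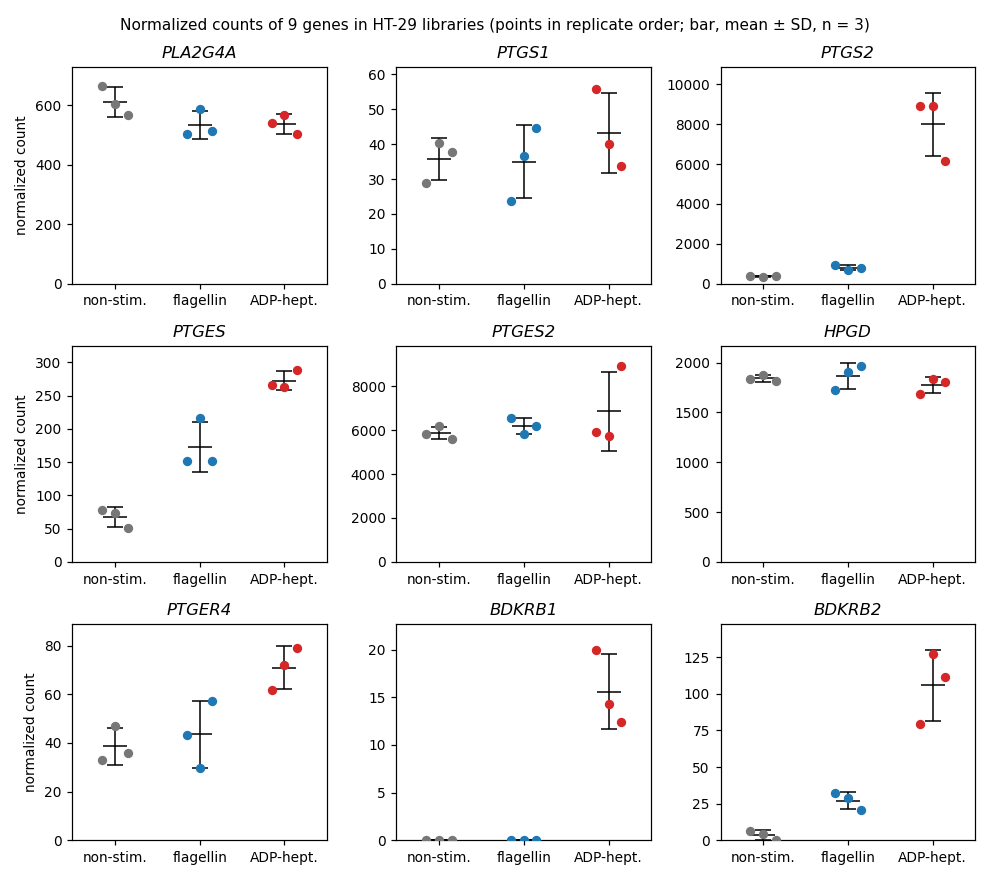
Normalized counts of the 9 members in the 9 libraries, 1 panel per gene, with a linear vertical axis from 0. Points are libraries in replicate order and bars give the mean and SD of 3 libraries; the ADP-heptose points of PTGS2, PTGES, BDKRB1 and BDKRB2 lie above all other points of the gene, while the groups of HPGD overlap.

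PLA2G4A encodes cytosolic phospholipase A2 alpha, which cuts arachidonic acid from phospholipids. Its normalized counts (counts scaled to a common effective library size) were 665.3, 603.6 and 567.6 without stimulation, 502.6, 588.1 and 513 with flagellin and 541.6, 569.3 and 503.5 with ADP-heptose. The groups overlapped. The log2 fold change was -0.19 after ADP-heptose (95% confidence interval -0.41 to 0.03, edgeR adjusted p 0.278) and -0.20 after flagellin (-0.42 to 0.03, adjusted p 1). The mean level was 612 ± 49.4 normalized counts (SD, n = 3) without stimulation, and a rise of more than 0.03 lies outside the interval of either stimulus.

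PTGS1 encodes cyclooxygenase 1, the enzyme that many tissues make constantly. It had only 23 to 67 counts per library. The normalized counts were 28.88, 40.39 and 37.84 without stimulation, 23.78, 36.61 and 44.66 with flagellin and 55.82, 40 and 33.81 with ADP-heptose, and the 3 groups overlapped. Neither change passed the test: the log2 fold change was 0.28 after ADP-heptose (interval -0.38 to 0.94, adjusted p 0.602) and -0.04 after flagellin (-0.73 to 0.65, adjusted p 1). Changes within these intervals are not excluded by these low counts.

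PTGS2 encodes cyclooxygenase 2, the inducible enzyme of the pair and the target of selective cyclooxygenase inhibitors. It lies on chromosome 1 (186671791 to 186680427, GRCh38, minus strand). Its counts were 362, 306 and 374 without stimulation, 892, 608 and 625 with flagellin and 10673, 12497 and 6909 with ADP-heptose. The 3 groups did not overlap. The mean normalized count of PTGS2 was 374 ± 30.5 in non-stimulated cells, 805 ± 114 after flagellin and 7990 ± 1600 after ADP-heptose (SD, n = 3).

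After ADP-heptose the log2 fold change of PTGS2 was 4.42 (standard error 0.16, edgeR adjusted p 2.5e-09), a ratio of 21.4. By unadjusted p it ranked 38 among the 17412 genes. ADP-heptose replicate 3, the library that stood apart, had the lowest normalized count of its group, 6146 against 8892 and 8926, and without it the log2 fold change was 4.58. After flagellin it rose by 1.11 (0.15, adjusted p 0.00581), a ratio of 2.15, in 3 of 3 libraries. This call was lost without non-stimulated replicate 1 (adjusted p 0.0513), non-stimulated replicate 2 (0.0602) or flagellin replicate 1 (0.0562), although the log2 fold change stayed between 0.99 and 1.11 in these fits. Between the stimuli, PTGS2 was higher after ADP-heptose by 3.31 on the log2 scale (0.15, adjusted p 3.0e-08), and the adjusted p was under 0.05 in all 16 alternatives tried.

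PACERR is a long non-coding RNA that starts next to PTGS2 and is transcribed from the opposite strand, with 194 bases between the annotated spans (chromosome 1, 186680622 to 186681446). It is not a member and was described because it is the neighbour. Its counts were 16, 19 and 17 without stimulation, 36, 18 and 23 with flagellin and 126, 148 and 120 with ADP-heptose. With ADP-heptose it rose by 2.49 on the log2 scale (standard error 0.25, edgeR adjusted p 2.3e-05), and did not pass the test with flagellin (0.64, adjusted p 1). Per length, the level of PACERR was 28.2% to 39.7% of that of PTGS2 in non-stimulated cells, 18.9% to 25.8% after flagellin and 7.54% to 11.1% after ADP-heptose. The 2 genes thus changed unequally within the same libraries. Whether the counting used strand is not given in the sources used here, but the annotated exons do not overlap.

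PTGES encodes microsomal prostaglandin E synthase 1, the inducible enzyme that makes prostaglandin E2 from the product of the cyclooxygenases. It lies on chromosome 9 (129738331 to 129753047, minus strand). Its normalized counts were 77.36, 74.05 and 50.81 without stimulation, 151, 216.3 and 151.8 with flagellin and 265.8, 263.6 and 289.1 with ADP-heptose. The 3 groups did not overlap, and the highest flagellin library lay below the lowest ADP-heptose library.

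PTGES rose by 2.01 on the log2 scale after ADP-heptose (standard error 0.19, edgeR adjusted p 1.6e-05) and by 1.36 after flagellin (0.20, adjusted p 0.00793). Both calls held in all 16 alternatives. The difference between the stimuli was 0.66 (0.18, adjusted p 0.0402) and depended on the processing, since it was past 0.05 in 7 of 16 alternatives, with adjusted p from 0.00388 to 0.17. It was lost on leaving out non-stimulated replicate 1 (0.0526) or 2 (0.0581), flagellin replicate 1 (0.165) or 3 (0.17), or ADP-heptose replicate 1 (0.0774) or 2 (0.0709), and also with library totals (0.0772) or only the 6 libraries compared (0.0542). For comparison, the flagellin call of PTGS2 held in 13 of 16 alternatives.

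PTGES2 encodes a second membrane-bound prostaglandin E synthase, which many cells make constantly. It had 4868 to 10034 counts per library and the highest level per length of the 9 members in each of the 3 groups. The normalized counts were 5818, 6187 and 5620 without stimulation, 6535, 5839 and 6212 with flagellin and 5904, 5748 and 8926 with ADP-heptose. The high value is that of ADP-heptose replicate 3. The log2 fold change after ADP-heptose was 0.22 (interval -0.08 to 0.53, edgeR adjusted p 0.344) with this library and -0.01 without it, and after flagellin it was 0.08 (-0.23 to 0.38, adjusted p 1). Its neighbour PTGES2-AS1, 66 bases away on the other strand, had log2 fold changes of -0.01 and 0.56 for the 2 stimuli, neither past the test.

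PTGER4 encodes EP4, a receptor for prostaglandin E2 that signals through cyclic AMP. Its counts were low, 26 to 101 per library. The normalized counts were 33.01, 47.12 and 35.68 without stimulation, 43.43, 29.75 and 57.42 with flagellin and 61.65, 72.14 and 79.18 with ADP-heptose. All 3 ADP-heptose libraries lay above the other 6. They lay above the non-stimulated libraries alone in 15.4% of all genes tested and above the flagellin libraries alone in 14.2%. The share above all 6 was not counted. The log2 fold change of 0.88 after ADP-heptose (standard error 0.26, interval 0.30 to 1.46) missed the threshold at an edgeR adjusted p of 0.0513, and it was past it in 4 of 16 alternatives, with adjusted p from 0.0217 to 0.181. With flagellin the log2 fold change was 0.17 (-0.44 to 0.78, adjusted p 1), and between the stimuli it was 0.71 (0.14 to 1.28, adjusted p 0.138). The gene TTC33 spans PTGER4 on the other strand, with no overlap of exons.

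HPGD encodes 15-hydroxyprostaglandin dehydrogenase, which starts the breakdown of prostaglandin E2 and is abundant in normal colon epithelium. Its coefficient of variation was 1.83% among the non-stimulated libraries, 6.9% with flagellin and 4.53% with ADP-heptose. The mean normalized count was 1840 ± 33.6 without stimulation, 1860 ± 129 with flagellin and 1770 ± 80.3 with ADP-heptose (SD, n = 3). The log2 fold change was -0.05 after ADP-heptose (interval -0.22 to 0.11, edgeR adjusted p 0.69) and 0.02 after flagellin (-0.15 to 0.18, adjusted p 1). A 2-fold change of HPGD in either direction lies outside both intervals.

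BDKRB1 encodes the kinin receptor B1 (chromosome 14, 96255824 to 96268967, plus strand). It had 0 counts in all 3 non-stimulated and all 3 flagellin libraries, and 24, 20 and 14 counts after ADP-heptose. Set against a floor of 3 counts per library, it was at least 4.82-fold higher after ADP-heptose than without stimulation (edgeR adjusted p 0.00497) and at least 4.51-fold higher than after flagellin (adjusted p 0.00702). The adjusted p was under 0.05 in all 15 alternatives in which it could be fitted. BDKRB1 passed the filter on low counts only through the ADP-heptose libraries, where it is high. These p-values and their stability are therefore not independent support for the rise. With a minimum mean of 10 counts BDKRB1 was too low to be tested. The ADP-heptose libraries were also the deepest, with at least 50054773 counts against at most 38304035 in the other 6.

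BDKRB2 encodes the kinin receptor B2 and lies 11657 bases before BDKRB1 on the same strand (96204679 to 96244166). Its counts were 6, 4 and 0 without stimulation, 31, 25 and 16 with flagellin and 95, 178 and 125 with ADP-heptose. The 3 groups did not overlap. The log2 fold change after ADP-heptose was 4.84 (standard error 0.48, edgeR adjusted p 2.4e-05), and between the stimuli it was 1.96 (0.36, adjusted p 0.00425), both past 0.05 in all 16 alternatives. BDKRB2 passed the filter on low counts only through the flagellin and ADP-heptose libraries, where it is higher. Its p-values against non-stimulated cells, with either stimulus, are therefore not independent support for a rise.

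For flagellin the log2 fold change of BDKRB2 was 2.88 (standard error 0.55), with an edgeR adjusted p of 0.056 that missed the threshold. It was past it in 4 of 16 alternatives: with the DESeq2 test (adjusted p 6.2e-05), without a filter on low counts (5.5e-07), with only the 6 libraries compared (0.00793) and without ADP-heptose replicate 3 (7.7e-04). The highest adjusted p was 0.299. All 3 flagellin libraries lay above the non-stimulated ones, as in 7.66% of all genes tested.

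The annotation places other genes over both kinin receptors. AL355102.2 runs through both and shares 479 exon bases with BDKRB2 and 376 with BDKRB1, and it had 0 counts in all 9 libraries. AL355102.4, which is antisense to BDKRB1 with 195 shared exon bases, had 0 counts in the 6 libraries without ADP-heptose and 1, 6 and 0 with it. AL355102.5, antisense to BDKRB2 without shared exon bases, had 4, 12 and 2 counts after ADP-heptose and 0 elsewhere. CKS1BP1 and AL355102.1 overlap BDKRB2 on its own strand, also without shared exon bases. CKS1BP1 had 2, 2 and 0 counts without stimulation, 1, 0 and 0 with flagellin and 15, 6 and 4 with ADP-heptose. AL355102.1 had 0 counts in each non-stimulated library, 0, 2 and 2 with flagellin and 0, 4 and 3 with ADP-heptose. If the counting did not use strand, reads of a receptor and of its antisense gene cannot be told apart where exons are shared. AL355102.2 lies on the same strand as both receptors, so strand cannot separate reads in the exon bases it shares with them. How such reads were counted is not given in the sources used here.

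**Figure D3:**
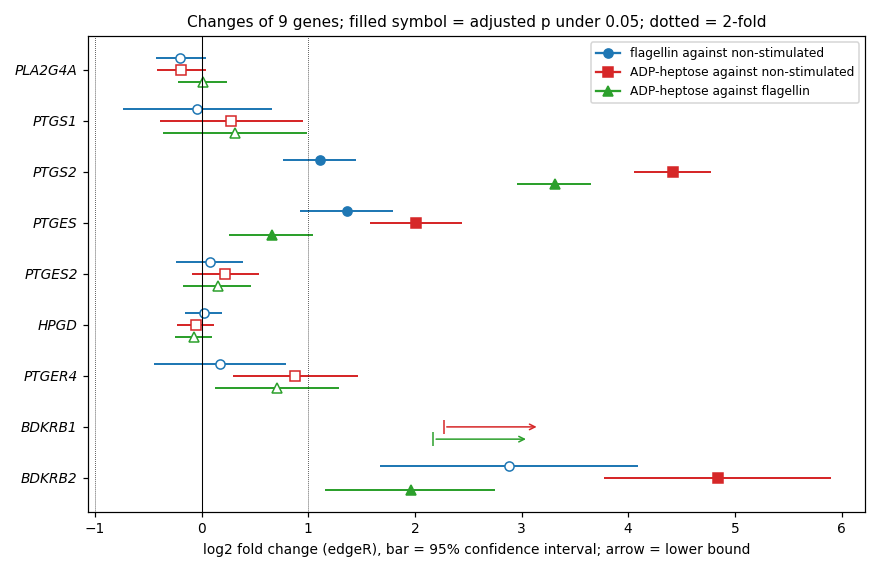
Log2 fold changes of the 9 members in 3 comparisons, with 95% confidence intervals from edgeR on the horizontal axis. Filled symbols have an adjusted p under 0.05, dotted lines mark 2-fold and arrows mark the lower bounds of BDKRB1, which has no flagellin value because both groups had 0 counts; PTGS2 stands at 4.42 after ADP-heptose and 1.11 after flagellin.

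The order of the members by level was taken from CPM per kilobase of annotated exon, which allows genes of different length to be compared. In non-stimulated cells the level of PTGES2 was 48 CPM per kilobase, followed by HPGD at 8.26, PLA2G4A at 5.28, PTGS2 at 1.76, PTGES at 0.882, PTGER4 at 0.242, PTGS1 at 0.153, BDKRB2 at 0.0129 and BDKRB1 at 0. Each gene's lowest library lay above the next gene's highest, except for BDKRB2 and BDKRB1. After flagellin the level of PTGS2 was 3.79 and overlapped with that of PLA2G4A at 4.61. PTGER4 at 0.273, PTGS1 at 0.15 and BDKRB2 at 0.098 also overlapped with their neighbours.

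After ADP-heptose PTGS2 moved to the second rank at 37.6 CPM per kilobase, below PTGES2 at 56 and above HPGD at 7.96, without overlap. PLA2G4A at 4.64 and PTGES at 3.57 came next. BDKRB2 reached 0.384, which overlapped with PTGER4 at 0.445, and BDKRB1 reached 0.14, which overlapped with PTGS1 at 0.185. Within 1 library, the level of PTGS2 was 9.34 to 14.2 times that of PTGS1 without stimulation, 19.6 to 42.6 times with flagellin and 175 to 245 times with ADP-heptose. Against HPGD, the level of PTGS2 was 0.192 to 0.234 without stimulation, 0.383 to 0.563 with flagellin and 3.57 to 5.55 with ADP-heptose. In non-stimulated cells the constitutive synthase PTGES2 exceeded PTGES 46.9 to 69 times, after flagellin 16.8 to 27 times and after ADP-heptose 13.6 to 19.3 times. These ratios describe RNA and not enzyme.

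**Figure D4:**
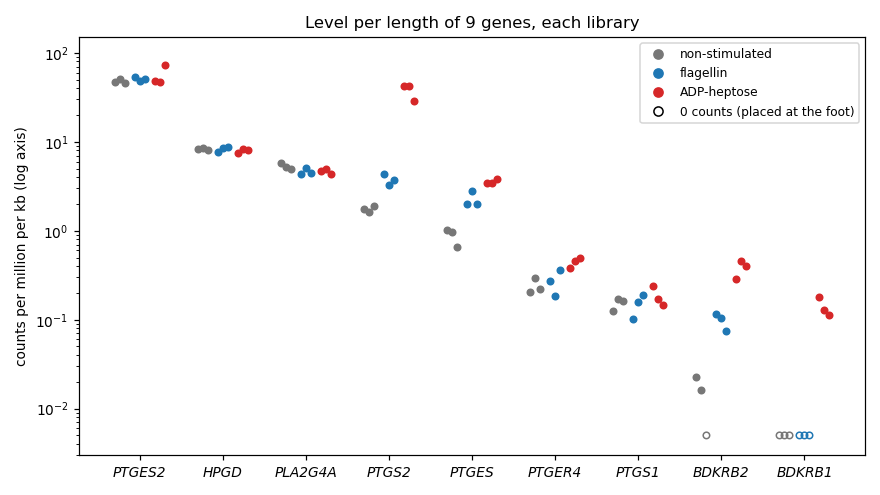
Level per length of the 9 members in each library, in CPM per kilobase of exon on a log axis, with genes ordered by their level in non-stimulated cells. Open points at the foot of the plot are libraries with 0 counts; the ADP-heptose points of PTGS2, around 37.6, lie between those of PTGES2 and HPGD.

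Genes with the most similar pattern were listed for the 4 changed members by Pearson's r over the 9 libraries, among genes whose mean log2 CPM reached 1. For PTGS2 these included TNFAIP3 (r 0.9988) and ETS1 (0.9966). For BDKRB1 they were JUN (0.9975), ZFP36 (0.9968) and TRIB1 (0.9961), which had similar means without stimulation and after flagellin: JUN had 2800 and 2990 normalized counts in these groups and 11700 after ADP-heptose. BDKRB1 itself had 0 counts in every library of these groups, so its values there lie at the floor. Its r values therefore show little beyond a rise after ADP-heptose only. For PTGES they were LTB (0.9768), CCL20 (0.9647) and STAT5A (0.9638), and for BDKRB2 they were LTB (0.9632), CNKSR1 (0.9623) and PTGES (0.9603). The libraries of 1 group share a treatment, so these values describe group means for the most part and carry no test.

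The other genes of the same pathways were taken from 6 lists with 61 genes, of which 60 were found and 34 were tested. With ADP-heptose 1 of the 34 rose and 0 fell by edgeR, and with flagellin 0 rose and 0 fell, beside 7.48% higher and 4.42% lower over all genes tested after ADP-heptose and 0.368% and 0.0115% after flagellin. At an unadjusted p under 0.05, 6 were higher and 1 lower after ADP-heptose and 0 changed after flagellin. Over all 17412 genes tested, 4334 were under it after ADP-heptose and 659 after flagellin, in either direction. DESeq2 called 4 list genes higher after ADP-heptose (PLA2G4C, PRXL2B, ANXA1 and MGLL) and 0 after flagellin. The median log2 fold changes were 0.05 and 0.00. The gene that rose was PLA2G4C, of the list of phospholipase A2 and arachidonate release (8 of 12 tested, with log2 fold changes from -0.14 to 3.56), which encodes cytosolic phospholipase A2 gamma, a relative of the PLA2G4A product. Its normalized counts were 5.16, 2.24 and 4.32 without stimulation, 13.4, 2.29 and 2.55 with flagellin and 45.8, 42.1 and 56 with ADP-heptose. Like BDKRB1, PLA2G4C passed the filter on low counts only through the ADP-heptose libraries, where it is high. The p-values of PLA2G4C are therefore not independent support for its rise. On the log2 scale it rose by 3.56 (standard error 0.56, edgeR adjusted p 9.9e-04) and was higher than after flagellin by 2.89 (adjusted p 0.00361), past 0.05 in all 16 alternatives, while the flagellin value of 0.67 did not pass (adjusted p 1).

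Of 9 other prostanoid synthases and reductases, 6 were tested and none passed, with log2 fold changes from -0.02 to 0.62 after ADP-heptose. Among 8 other prostanoid receptors only PTGER1 and PTGER2, the genes of EP1 and EP2, had enough counts to be tested. Their log2 fold changes after ADP-heptose were 1.60 (edgeR adjusted p 0.121) and -0.42 (adjusted p 0.719). PTGDR and PTGFR, the genes of a prostaglandin D2 and the prostaglandin F receptor, had 0 counts in all 9 libraries. The 4 tested genes of prostaglandin transport and inactivation ranged from -0.45 to 0.10, and the 8 tested lipoxygenase and leukotriene genes from -0.42 to 1.25, none past the threshold. Between the stimuli, 1 of the 34 list genes was higher after ADP-heptose by edgeR (PLA2G4C) and 0 were lower. The edgeR shares over all genes tested were 5.4% for a rise and 2.76% for a fall. With an unadjusted p under 0.05, 3 list genes were higher and 1 lower, beside 3691 of all 17412 genes tested in either direction. DESeq2 called 1 list gene higher and 1 lower. The lower gene by DESeq2 was ALOX5, which encodes 5-lipoxygenase and had an edgeR log2 fold change of -0.21 (adjusted p 0.0621).

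The genes that form and break down kinins did not pass the test with either stimulus, also at an unadjusted p under 0.05 and with DESeq2, with 6 of 13 tested and log2 fold changes from -0.19 to 0.49 after ADP-heptose. KNG1, which encodes the kininogen from which kinins are cut, had 19.1 to 37.5 normalized counts over the 9 libraries, with a log2 fold change of 0.00 after ADP-heptose (interval -0.75 to 0.76). KLK1, the gene of tissue kallikrein, stood at -0.02 (-0.63 to 0.59). KLKB1, the gene of plasma kallikrein, and MME, the gene of neprilysin, which degrades bradykinin, had 0 counts in all 9 libraries. Other genes of this list were detected: CPD had 5116 to 9256 counts per library, XPNPEP1 4472 to 8328 and ACE 4 to 23. Their log2 fold changes after ADP-heptose were -0.19, 0.01 and 0.49.

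**Figure D5:**
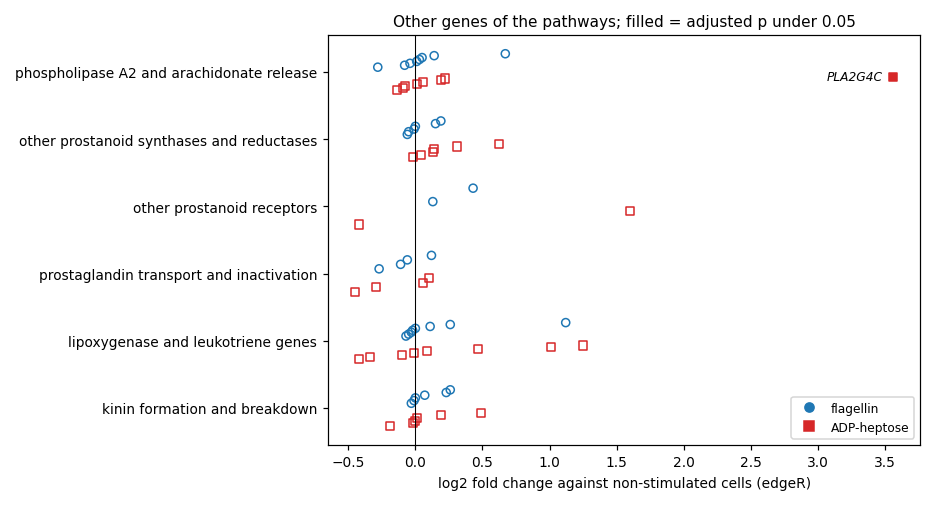
Log2 fold changes of the 34 tested genes of 6 pathway lists against non-stimulated cells, with flagellin as circles and ADP-heptose as squares. Filled symbols have an edgeR adjusted p under 0.05; PLA2G4C after ADP-heptose, at 3.56, is the only filled symbol.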

How the data were processed

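The authors aligned paired reads of 150 bases with HISAT2 and used featureCounts to count them by gene; versions, build, annotation and strand setting are not given in the sources used here. The deposited table holds raw counts in 62972 lines, and 232 identifiers listed more than once were kept once. Of 62710 identifiers, 58274 (92.9%) are in GENCODE 29, which gave positions and exon lengths. Members were matched by symbol, PACERR by identifier.

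All 9 libraries were fitted together with edgeR 4.0.16 in R 4.3.3 (TMM, filterByExpr, robust quasi-likelihood fit), and p-values were adjusted by the Benjamini-Hochberg method over 17412 genes. A gene passes at an adjusted p under 0.05, and the threshold of the study also asks for 2-fold. A normalized count is the count over its library's effective size, times the geometric mean of these sizes. Lower bounds of folds use 3 counts per library. The smallest two-sided p of an exact permutation test with 3 libraries a group is 0.1, so p-values come from the fit. The study describes its RNA-seq values as coming from 3 independent experiments, while the labels do not say which library belongs to which experiment. The named genes are all members, the genes beside or over them, up to 3 genes per list and direction past the threshold, and the 3 genes most alike in pattern for members that passed (1 of those for PTGS2 is not reported here); other list genes named were chosen after their values were seen. The members and lists were chosen with earlier results of these data known. Before use, the fit was run on simulated data with 200 changed genes in the ADP-heptose comparison, and the outcome is not given here. DESeq2 1.42.0 was an alternative.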

Additional observations from a re-analysis of the deposited data

How the results depend on the processing

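The 16 alternatives were other scalings, the DESeq2 test, other filters on low counts, fits of the 6 libraries compared, a block for the replicate number, and the omission of single libraries. No member's called value changed sign. Numbers of members past the test stayed within 1.5 times for ADP-heptose. For flagellin, leaving out single libraries gave 1 to 3 members, with or without the 2-fold threshold. Over all genes, 82 were lower after ADP-heptose at both thresholds, against 175 with library totals, which moved the median of all genes to -0.13, and 49 to 96 with single libraries left out. After flagellin 37 genes were higher, against 60 with no filter on low counts. After flagellin 2 were lower, against 4 with the DESeq2 test, 8 with no filter, and 0 to 3 with single libraries left out. Against flagellin 50 genes were lower after ADP-heptose, against 93 with library totals, 82 with the DESeq2 test, 77 with no filter and 31 to 59 with single libraries left out. The cause of these differences was not tested.

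Same-numbered libraries of ADP-heptose and non-stimulated cells deviated together with correlations from -0.38 to 0.24. ADP-heptose replicates 1 and 2 gave nearly equal values against each non-stimulated library: 0.24 and 0.23, -0.38 and -0.38, and 0.21 and 0.21. Replicate 3, which stood apart, weighs most in these deviations, so the check cannot tell whether replicate numbers pair the libraries. With the number as a replicate block, 467 genes were higher and 56 lower after ADP-heptose, 32 higher and 1 lower after flagellin, and PTGES between the stimuli had an edgeR adjusted p of 0.0634. Block fits moved no other count of member calls by over 1.5 times. Low counts limit PTGS1, PTGER4, BDKRB1 and BDKRB2.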
